A study of Homo sapiens with 8 samples.

Results

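NDN and NPAP1 are a pair of genes in the imprinted region 15q11-q13 on the long arm of human chromosome 15, close to 1 Mb apart. They were taken by gene symbol from 3 tables of gene expression comparisons in K-562 cells, and are 2 of the 1221 genes listed in at least 1 of those tables. The pair was chosen by its deposited log2 fold changes (log2FC, altered cells over controls), so those values are a description and no test of them is added here.

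In an imprinted gene, the copy from one parent is silenced, under control of DNA methylation set in the germ line, and the other copy is active. On 15q11-q13 the genes MKRN3, MAGEL2, NDN, SNRPN and the long non-coding RNA SNHG14 are expressed from the paternal copy, and loss of that copy causes Prader-Willi syndrome. NDN encodes necdin, a protein of the MAGE family that restrains growth in neurons and binds E2F and p53 proteins. NPAP1 encodes a protein associated with the nuclear pore and is known mainly from testis and fetal brain. HUSH, the human silencing hub, is a protein complex that silences LINE-1 elements, some genes and introduced transgenes, and intronless transcripts are among its known targets. TASOR is a core subunit of HUSH, and TASOR2 is the paralog of TASOR.

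The study sequenced ribosomal RNA-depleted total RNA from K-562, an established human leukaemia line with erythroid features, in 4 groups of 2 libraries. The altered groups are TASOR KO cells, TASOR KO cells expressing a FLAG-TASOR transgene, and wild-type cells expressing a FLAG-TASOR2 transgene, and the fourth group is the wild-type control with a negative guide RNA. Per the labels' protocols, knockout cells came from CRISPR/Cas9-transfected, GFP-sorted single cells grown as clones, and cells received lentivirus carrying either an empty puromycin vector or a FLAG-tagged transgene. The labels give no guide RNA for the FLAG-TASOR2 cells, so a difference in guide treatment cannot be told apart from the transgene. Neither do they say whether the 2 libraries of a group came from separate clones, so the p-values reflect only how much these libraries vary, which may be technical. Each altered group was compared by the authors with the same 2 control libraries, and the 3 comparisons are therefore not independent of one another.

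The deposited tables hold 1 line per gene and no value per library, so depth is unknown and no per-library level can be shown. They list 268 genes for TASOR KO, 261 for TASOR KO with FLAG-TASOR and 884 for WT with FLAG-TASOR2. All listed genes had an unadjusted p under 0.05, a log2FC beyond 1 in either direction, and a mean expression over 1 on the log2 scale. An unlisted gene has no value here, which does not place it at the level of the controls. As a check of the labels, TASOR had a log2FC of -1.08 (estimated SE 0.23, adjusted p 1.00), as the authors' deposited table for TASOR KO gives it. TASOR2 had a log2FC of 2.26 (estimated SE 0.27, adjusted p 0.125), as the authors' deposited table gives it for WT with FLAG-TASOR2. Neither gene was listed for TASOR KO with FLAG-TASOR. The labels call the cells lymphoblasts. Of 15 erythroid marker genes, 4 were listed for WT with FLAG-TASOR2, all as higher like the pair, at log2 mean expression between 4.11 and 10.2 in the authors' deposited table. HBE1 alone of them was listed for TASOR KO with FLAG-TASOR, as higher, at 10.8 in the authors' deposited table, and 0 were listed for TASOR KO. Over all tested genes, 6.31% were listed for WT with FLAG-TASOR2 and 1.92% for TASOR KO. Of all listed genes, 40.5% were higher for WT with FLAG-TASOR2 and 32.6% for TASOR KO with FLAG-TASOR. The part of the erythroid markers in the NDN and NPAP1 values was not tested. Of 5 lymphoid marker genes, only PTPRC was listed, in the authors' deposited table for TASOR KO, at a log2 mean expression of 6.64. Unlisted markers have no value, so the tables cannot settle the cell type.

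NDN (ENSG00000182636) lies on chromosome 15 at 23685400 to 23687330 on the minus strand of GRCh38, per GENCODE 29. NPAP1 (ENSG00000185823) lies at 24675868 to 24683393 on the plus strand of the same chromosome. Both are protein-coding genes whose annotated transcripts consist of 1 exon, a structure shared by 970 of 19922 annotated protein-coding genes (4.87%). No other annotated gene overlaps either of them on either strand. The longest NDN transcript has 1931 bases, shorter than the coding-gene median of 3157, while the NPAP1 transcript has 7526 bases and is longer than 91.4% of coding genes. Their base composition is ordinary, with 24.9% A in the NDN transcript and 26.3% A in that of NPAP1, against a median of 25.7% over coding genes. NPAP1 has relatives that could share its reads, since RefSeq names 10 NPAP1 pseudogenes, of which 0 are listed in any table.

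The promoter windows of both genes are shown because the pair was listed as higher in the same comparison and because CpG methylation is the mark on which imprinting rests. Each window runs from 250 bases before the RefSeq gene start to 50 bases after it (GRCh38.p14), written 5′ to 3′ on the gene's own strand, with CpG dinucleotides in capitals. The NDN window is chr15:23687256-23687555 on the minus strand, and the NPAP1 window is chr15:24675525-24675824 on the plus strand. The GENCODE start of NPAP1, 24675868, lies past the end of the NPAP1 window, which therefore spans the RefSeq start only.
NDN: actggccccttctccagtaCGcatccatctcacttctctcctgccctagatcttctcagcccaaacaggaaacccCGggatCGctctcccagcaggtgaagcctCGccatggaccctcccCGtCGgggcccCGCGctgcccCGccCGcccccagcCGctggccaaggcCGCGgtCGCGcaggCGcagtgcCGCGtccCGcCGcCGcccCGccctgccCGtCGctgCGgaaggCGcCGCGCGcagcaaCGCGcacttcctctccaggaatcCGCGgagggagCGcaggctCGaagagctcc
NPAP1: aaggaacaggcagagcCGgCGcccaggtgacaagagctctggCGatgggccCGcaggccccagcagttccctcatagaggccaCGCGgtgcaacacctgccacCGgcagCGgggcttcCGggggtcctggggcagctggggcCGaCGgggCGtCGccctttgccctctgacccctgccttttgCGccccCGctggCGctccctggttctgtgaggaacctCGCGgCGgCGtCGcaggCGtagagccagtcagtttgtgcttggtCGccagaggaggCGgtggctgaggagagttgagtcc
The NDN window holds 35 CpG dinucleotides, more than 85.9% of 35116 RefSeq promoter windows of the same length, whose median is 14. The NPAP1 window holds 24, more than 66.1% of them. The ratio of observed to expected CpG was 0.951 for NDN and 0.669 for NPAP1, against a median of 0.579. MKRN3 and MAGEL2, the neighbouring imprinted genes, have 15 and 9 CpG in their windows. These are properties of the reference sequence, and no methylation was measured.

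**Figure D1:**
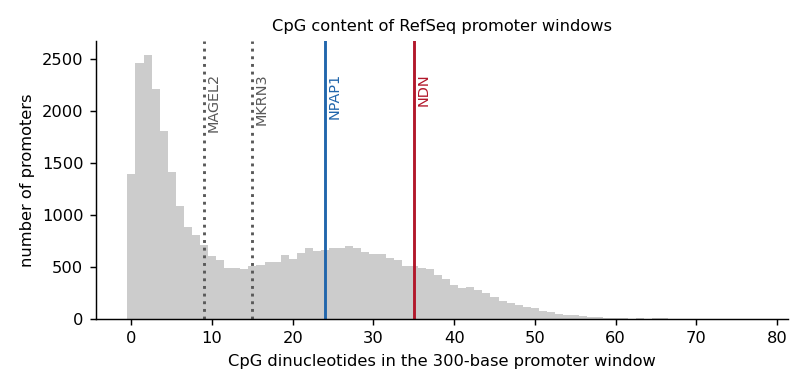
CpG dinucleotides per 300-base RefSeq promoter window (x axis) over 35116 windows (grey bars, number of windows), with vertical lines for NDN, NPAP1, MKRN3 and MAGEL2. NDN, at 35, and NPAP1, at 24, lie in the upper mode of the distribution, while MKRN3, at 15, lies near the dip between the modes and MAGEL2, at 9, lies on the falling side of the lower mode.

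A search of both strands for 4 short motifs gave different matches for the pair. The NDN window holds 1 match to TGCCGC, the hexamer bound by the imprint-maintaining zinc finger protein ZFP57 when it is methylated, and 16.7% of all windows hold one. The GC box GGGCGG, a binding motif of SP1, matched 4 times in the NDN window, in pairs that overlap each other, and at least once in 45.0% of windows. The NPAP1 window holds no match to either motif. Neither window holds CCAAT, found in 34.6% of windows, or TATAAA, found in 11.5%. A match describes letters in this window only.

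NDN was listed as higher in all 3 comparisons, and NPAP1 in 1 of them. In the authors' deposited table for TASOR KO, NDN had a log2FC of 3.08, with an F score of 6.41, a p of 0.0493 and an adjusted p of 1.00. Its estimated SE was 1.22, and the approximate 95% interval ran from 0.01 to 6.15 on the log2 scale. NDN therefore stood just inside the listing threshold, with only 2 of the 268 listed genes at a larger p. In this comparison 51.1% of the listed genes were higher, and 1.92% of the 13992 genes tested were listed.

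In the authors' deposited table for TASOR KO with FLAG-TASOR, NDN had a log2FC of 2.87, with an F score of 6.60, a p of 0.0471 and an adjusted p of 0.999. Its estimated SE was 1.12, with an approximate 95% interval from 0.05 to 5.69. Here too NDN was near the threshold, with 12 of 261 listed genes at a larger p. Only 32.6% of the genes listed for this group were higher, and NDN ranked 12 among those 85 by fold change.

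In the authors' deposited table for WT with FLAG-TASOR2, NDN had a log2FC of 3.53, with an F score of 12.9, a p of 0.0115 and an adjusted p of 0.252. The estimated SE was 0.98 and the approximate 95% interval ran from 1.13 to 5.94. NPAP1 had the larger value of the pair in the authors' deposited table for this comparison, with a log2FC of 4.61, an F score of 36.7, a p of 0.000906 and an adjusted p of 0.143. Its estimated SE was 0.76 and its approximate 95% interval ran from 2.75 to 6.47. The intervals of the 2 genes overlap, and the difference between them was not tested. Of 884 listed genes, NPAP1 ranked 84 by p and NDN 437. In this comparison 40.5% of listed genes were higher, and 6.31% of the 14001 genes tested were listed.

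Neither gene passed an adjusted p of 0.05 in any comparison (0 of the 4 listings, all at an unadjusted p below 0.05), by the authors' F-test, whose table columns are those of edgeR's quasi-likelihood method. The share of tested genes that passed was 0.00715% for TASOR KO and 0.0357% for WT with FLAG-TASOR2, and 0 of 261 listed genes passed for TASOR KO with FLAG-TASOR. The 3 NDN fold changes stand side by side at 3.08 for TASOR KO, 2.87 for TASOR KO with FLAG-TASOR and 3.53 for WT with FLAG-TASOR2 in the authors' deposited tables. Each lies within 1 estimated SE of the others. The same 2 control libraries enter all of them, so the repeat is no independent evidence.

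**Figure D2:**
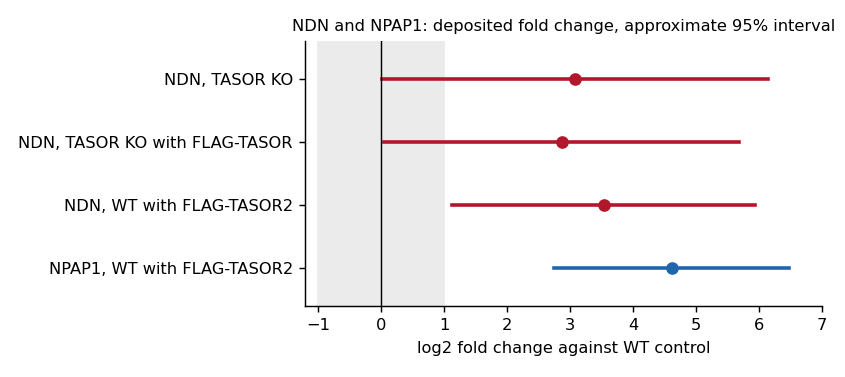
Log2FC against WT control (x axis) of NDN in the 3 comparisons and of NPAP1 in the 1 in which it was listed, with points for the deposited value and lines for the approximate 95% interval derived from the F score. The grey band marks the log2FC values from -1 to 1 that the tables leave out. The NDN intervals for both TASOR KO groups begin just above 0, at 0.01 and 0.05, and that of NPAP1 begins at 2.75.

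The NDN estimated SEs were large among the listed genes. The estimated SE of 1.22 for TASOR KO was the 6th largest of the 268 listed genes, whose median was 0.58. For TASOR KO with FLAG-TASOR it ranked 18 of 261 (median 0.53) and for WT with FLAG-TASOR2 it ranked 78 of 884 (median 0.54). These ranks follow in part from the listing rule, which caps the estimated SE in proportion to the fold change. A large fold change with a p near the threshold ranks high by construction. NDN had a log2 mean expression of 3.21, 2.98 and 3.44 in the authors' deposited tables for TASOR KO, TASOR KO with FLAG-TASOR and WT with FLAG-TASOR2, each above the median of its table (2.79, 2.73 and 3.05). NPAP1 had a higher log2 mean expression, at 5.41 in the authors' deposited table for WT with FLAG-TASOR2. These values are not scaled to transcript length, and the NPAP1 transcript is the longer of the pair.

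**Figure D3:**
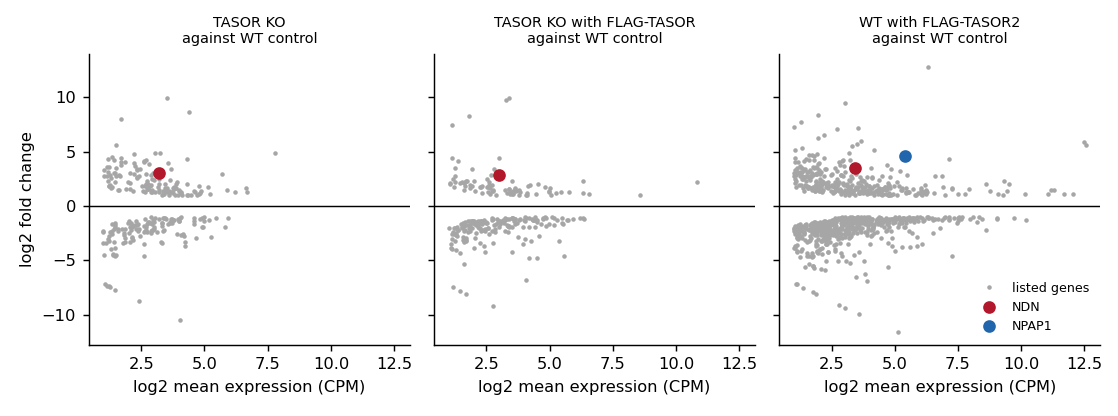
Log2FC (y axis) against log2 mean expression in CPM (x axis) of every listed gene (grey) in the 3 comparisons, with NDN in red and NPAP1 in blue. NDN lies at similar expression in each panel, between 2.98 and 3.44, and NPAP1 lies farther right at 5.41; the band around 0 is empty because the tables leave it out.

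Group levels were derived from each deposited fold change and mean expression, taking the mean as an arithmetic one over libraries of equal size. NDN came to 16.6 CPM in TASOR KO cells against 1.96 CPM in controls. It came to 13.9 CPM in TASOR KO cells with FLAG-TASOR against 1.90 CPM in controls, and to 20.0 CPM in WT cells with FLAG-TASOR2 against 1.73 CPM in controls. The control level of NDN derived from the 3 comparisons thus lay at 1.73 to 1.96 CPM. The same 2 control libraries enter all 3, so this closeness is built in and is no repeat measurement. Over the genes listed in any 2 tables, the derived control levels differed by a median of 0.08 to 0.13 on the log2 scale. NPAP1 came to 81.8 CPM in WT cells with FLAG-TASOR2 against 3.35 CPM in controls. Per kilobase of transcript, the derived levels in WT cells with FLAG-TASOR2 were 10.4 CPM per kb for NDN and 10.9 CPM per kb for NPAP1. They were 19.1 and 28.0 CPM per kb when the mean was read as a geometric one, so how close the 2 genes are depends on that reading. In the controls they were at 0.895 CPM per kb for NDN and 0.445 CPM per kb for NPAP1 with the arithmetic mean. These derived levels carry the error of the fold change and that of how the mean is read, and bulk RNA cannot tell more cells expressing a gene from more RNA per cell.

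**Figure D4:**
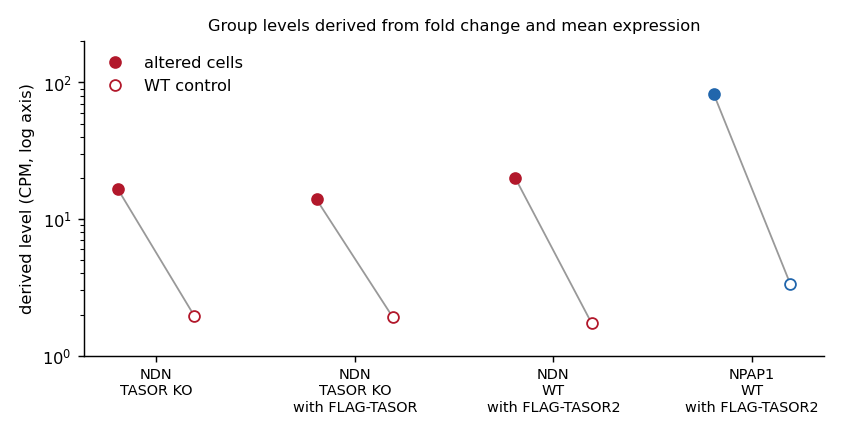
Derived expression level in CPM (log y axis) of NDN in red and NPAP1 in blue, with the altered cells as filled points left of the WT control as open points, joined by a line. The open NDN points lie at 1.73 to 1.96 CPM in all 3 comparisons and the filled ones at 13.9 to 20.0 CPM.

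NPAP1 was not listed for TASOR KO or for TASOR KO with FLAG-TASOR. Its derived control level has a log2 value of 1.74, above the expression threshold of 1, so a level in those cells at or above that of the controls would have met that threshold. Whether NPAP1 missed the fold threshold, the p threshold or, being lower, the expression threshold is not shown. A difference in NPAP1 between the groups was not tested for this reason.

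Most genes of the imprinted region were unlisted, as were most genes of the genome, since 1.92% of tested genes were listed for TASOR KO and 6.31% for WT with FLAG-TASOR2. Of the 28 gene symbols fixed for 15q11-q13, 25 are annotated, and with the small nucleolar RNA families of the region the list holds 108 annotated genes. NDN alone was listed for TASOR KO and for TASOR KO with FLAG-TASOR, and both NDN and NPAP1 were listed as higher for WT with FLAG-TASOR2, where 40.5% of listed genes were higher. MAGEL2, the MAGE-family gene whose nearer edge lies 37.5 kb from NDN, was not listed in any comparison. Nor was MKRN3, a zinc finger gene that restrains puberty. SNRPN, which begins 140 kb beyond NPAP1, was also unlisted, as were SNURF, SNHG14 and UBE3A, the ubiquitin ligase gene of Angelman syndrome. Between NDN and NPAP1 lie 10 annotated genes, 0 of them protein-coding and 0 listed in any table. Of 21 protein-coding genes that start within 2 Mb of either gene, NDN and NPAP1 were the 2 listed.

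Along the whole of chromosome 15, the comparisons differed in what was listed beside the pair. For TASOR KO, 12 genes of the chromosome were listed, 2 higher and 10 lower, with NDN the most proximal and the next listed gene, RASGRP1, 14.9 Mb away. For TASOR KO with FLAG-TASOR, 6 were listed, 3 higher and 3 lower. Over all listed genes, 51.1% were higher for TASOR KO and 32.6% for TASOR KO with FLAG-TASOR. Over all tested genes, 1.92% were listed for TASOR KO and 6.31% for WT with FLAG-TASOR2. How many chromosome 15 genes were tested is unknown. For WT with FLAG-TASOR2, 35 were listed, 20 higher and 15 lower, where 40.5% of all listed genes were higher. In that comparison the 10 most proximal listed genes, from 20642799 to 33194733, were all higher, and the remaining 25 were 10 higher and 15 lower. The limits of this stretch were picked with the values in view, so it is a description.

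The protein-coding genes among these 10 include NDN, NPAP1, ENTREP2 and FMN1. ENTREP2 had a log2FC of 2.94 (estimated SE 0.86) in the authors' deposited table for WT with FLAG-TASOR2 and starts 5.88 Mb from NDN. FMN1, which encodes the actin-nucleating protein formin 1, had a log2FC of 3.44 (1.04) in the authors' deposited table and starts 9.51 Mb from NDN. Another 5 lie between NDN and the centromere. The long non-coding RNA LINC01193 had a log2FC of 5.70 (0.82) in the authors' deposited table, and the pseudogene NBEAP1 one of 4.02 (0.77). The genes AC023310.4, a long non-coding RNA, and AC131280.1 had log2FC values of 4.40 (0.98) and 2.91 (1.03) in the authors' deposited table. AC131280.1 lies within NBEAP1 on the opposite strand, and the sources used here do not say if counting was stranded, so their reads cannot be told apart. HERC2P2, a pseudogene of HERC2 with near-identical copies nearby, had a log2FC of 1.19 (0.41) in the authors' deposited table, and reads may be split between the copies. None of these 10 genes passed an adjusted p of 0.05 (0 of 10, each at an unadjusted p below 0.05 in the edgeR-type table).

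**Figure D5:**
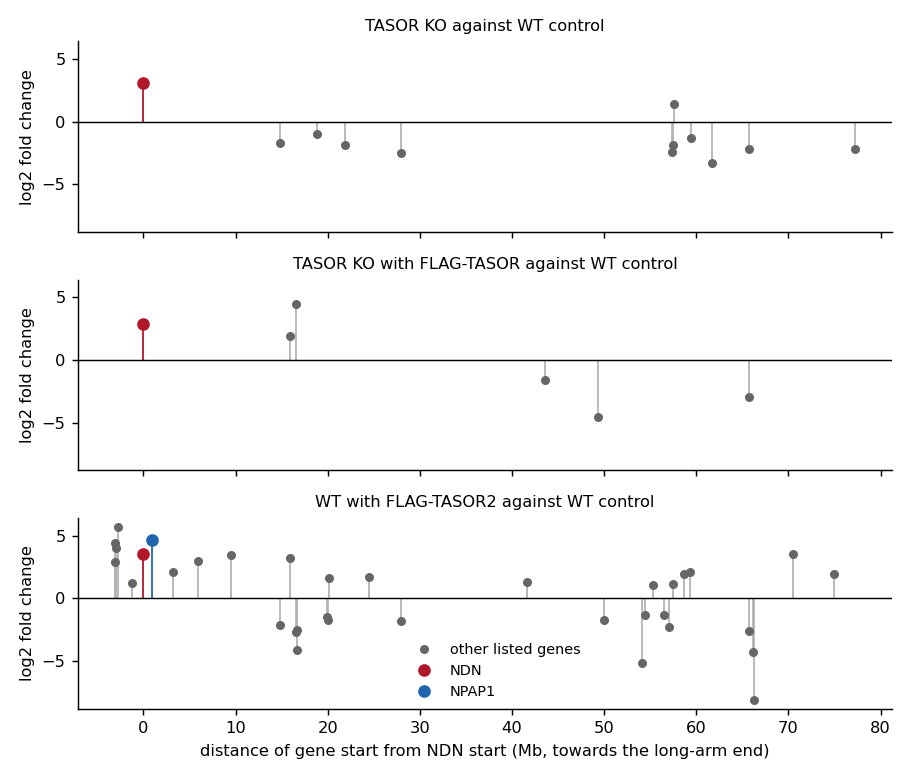
Log2FC (y axis) of every listed chromosome 15 gene by the distance of its start from that of NDN in Mb (x axis), in a panel for each of the 3 comparisons; NDN is red, NPAP1 blue and other listed genes grey. For WT with FLAG-TASOR2 the 10 leftmost genes are all above 0, and the 25 genes to their right are 10 above and 15 below.

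Imprinted genes elsewhere in the genome were listed in 1 of the 3 comparisons. Of 89 annotated genes on a list of imprinted genes outside 15q11-q13, 0 were listed for TASOR KO and 0 for TASOR KO with FLAG-TASOR, by the same unadjusted p below 0.05 that every listed gene met in the authors' edgeR-type F-test. For WT with FLAG-TASOR2, 3 (3.37%) were listed, 1 higher and 2 lower, with 0 past an adjusted p of 0.05. Over all tested genes, 1.92% were listed for TASOR KO and 6.31% for WT with FLAG-TASOR2, and many genes of the list may not have been tested, so these counts show nothing particular to imprinted genes. MEST, a paternally expressed gene of the hydrolase family, had a log2FC of 1.93 (estimated SE 0.60, adjusted p 0.297), from the authors' deposited table. DLK1, a paternally expressed regulator of Notch signalling and differentiation, had one of -3.48 (0.83, adjusted p 0.214) per the authors' deposited table. HYMAI, a non-coding RNA expressed from the paternal copy, had one of -2.00 (0.68, adjusted p 0.328) per the authors' deposited table, close to the expression threshold with a log2 mean expression of 1.09. The 3 listed genes are all paternally expressed, like NDN, and did not share a direction.

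NDN was the only gene of the MAGE family, necdin's own, that was listed as higher in any comparison, and its listed relatives were lower. Of 43 annotated MAGE-family genes, 2 (4.65%) were listed for TASOR KO, where 1.92% of all tested genes were listed. These were NDN as higher and MAGEH1 as lower, with a log2FC of -2.15 (estimated SE 0.62) for MAGEH1 in the authors' deposited table. For TASOR KO with FLAG-TASOR, NDN was the 1 listed member. For WT with FLAG-TASOR2, 3 (6.98%) were listed, where 6.31% of all tested genes were. NDN was higher, and the cancer-testis genes MAGEB17 and MAGEA9B were lower, with log2FC values of -2.27 (0.73) and -2.22 (0.35) in the authors' deposited table. MAGEA9B has a near-identical copy, MAGEA9, with which it may share reads. The MAGE-family shares are over annotated genes, many of which may not have been tested, and they count NDN, chosen for its values. These counts therefore show nothing particular to the family. Of 21 annotated genes related to NPAP1, which include its pseudogenes and the POM121 nuclear pore genes, NPAP1 itself was the 1 listed, in the comparison of WT with FLAG-TASOR2, so no relative of it has a value. Of 23 annotated genes on a list of HUSH subunits and factors that maintain imprints, TASOR was listed for TASOR KO and TASOR2 for WT with FLAG-TASOR2, with the values given above. That is 4.35% of the list in each, beside 1.92% and 6.31% of all tested genes. In each case the listed gene is the one altered in those cells, so these shares say nothing about the rest of the list. Those unlisted include MPHOSPH8, PPHLN1, SETDB1, TRIM28, ZFP57 and DNMT1.

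Likeness to NDN could be measured only for genes listed in all 3 comparisons. No other gene within 2 Mb of NDN was, so its neighbours could not be ranked. Besides NDN, 26 genes without an all-zero group were listed in all 3 comparisons, 13 of them higher throughout, where all share the controls. By Euclidean distance between the 3 log2FC values, the nearest was ACVR1C, which encodes an activin receptor, at a distance of 1.76. ACVR1C had log2FC values of 2.84, 1.83 and 2.13 in the authors' deposited tables for TASOR KO, TASOR KO with FLAG-TASOR and WT with FLAG-TASOR2. The next were ZNF671 at 1.89, LINC01980 at 2.07, TDRD5 at 2.07 and ZNF418 at 2.09. Each of these 5 had a lower log2FC than NDN for WT with FLAG-TASOR2, between 1.67 and 2.64 in the authors' deposited table against 3.53 for NDN. NPAP1 was listed in 1 comparison, so likeness to it means only a similar size there, among 738 genes listed in that table alone. The nearest of them were GPR37 and CNTNAP4, with log2FC values of 4.64 and 4.66 in the authors' deposited table for WT with FLAG-TASOR2, then ST6GALNAC5, MTX3 and PLXDC2.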

How the data were processed

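Ribosomal RNA-depleted RNA-seq of 8 K-562 libraries was compared by the authors. The submitters' processing notes list hg38 and, without roles, the tools DESeq2, edgeR, Salmon and STAR 2.7.8. Per the file headers, each of the 3 deposited tables holds, per gene, a log2FC (altered over control), the mean log2 CPM, the F score of a test and its p-value, raw and adjusted. The F score and p-value were used as the authors deposited them. The authors' column names are those of edgeR's quasi-likelihood F-test.

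Depth per library is unknown, and no model was refitted. The estimated SE is the size of log2FC over the root of F, and 95% intervals use degrees of freedom recovered from F and p (5.36, 5.34 and 6.01 in the order TASOR KO, TASOR KO with FLAG-TASOR, WT with FLAG-TASOR2). The number of genes tested came from the adjusted over the raw p of the lowest-p gene, and was whole for TASOR KO and WT with FLAG-TASOR2. Group levels in CPM solve the fold change and the mean together. A run on simulated data only inverted arithmetic means, so it checked the algebra. It cannot show how the deposited mean should be read. Positions came from GENCODE 29 (257 of 268, 253 of 261 and 853 of 884 listed genes matched by identifier), and promoters from RefSeq. Python 3.11.15, pandas 2.3.3 and scipy 1.17.1 were used.

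The genes and lists were chosen with earlier results of these data known. Text names follow a rule: the pair, listed genes of the 15q11-q13, imprinted, MAGE, NPAP1-related and HUSH lists (at most 10 per table), listed genes within 2 Mb, and the 5 genes nearest in log2FC. The proximal chromosome 15 genes and RASGRP1 fall outside it. Alternatives changed the source of the SE, the fold threshold, the definition of the region and an expression filter. Tables of transposable elements were not used here, and 1 gene's result is not reported.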

Additional observations from a re-analysis of the deposited data

How the results depend on the processing

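No paired analysis was possible because the tables hold no value per library, and for the same reason no replicate could be left out. An SE taken from the p-value in place of F must equal the reported one, since the degrees of freedom were themselves recovered from F and p, so it checks nothing. The counts of listed genes stayed within 1.5 times of the reported ones with an absolute log2FC of at least 2 (15q11-q13, imprinted and MAGE lists). So did those with the region defined by position and with the expression filter on the imprinted list. By position, the count for WT with FLAG-TASOR2 includes HERC2P2, which is not on the 15q11-q13 list. A like count there does not mean the same genes. Reading the log2 mean expression as a geometric mean, chosen after seeing the data, raised the derived NPAP1 levels, for which no SE was available. They became 211 CPM in WT cells with FLAG-TASOR2 and 8.61 CPM in controls, in place of 81.8 and 3.35 CPM. The derived NDN levels became 26.9 CPM in TASOR KO, 21.4 CPM in TASOR KO with FLAG-TASOR and 36.9 CPM in WT with FLAG-TASOR2, in place of 16.6, 13.9 and 20.0 CPM, and 2.93 to 3.19 CPM in controls, in place of 1.73 to 1.96 CPM. With that reading, control levels derived from different tables differed more, by a median of 0.20 to 0.30 on the log2 scale.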
